A study of Homo sapiens with 8 samples.

Results

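The 8 long noncoding RNAs MALAT1, NEAT1, TUG1, OIP5-AS1, MIR22HG, H19, KCNQ1OT1 and MEG3 were followed through a thyroid hormone experiment in cultured human thyroid cells. They are 8 of the 56832 gene rows of the count tables, taken by symbol, and all 8 passed the filter on low counts that left 14611 genes for testing. The list was drawn up with results from these libraries in view, so its members count as selected on these counts. Their levels and changes are therefore given as descriptions with no test, and tests are reported only for other genes.

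The cells were Nthy-ORI, an established epithelial line from normal human thyroid. All cultures spent 24 h without hormone, in medium free of phenol red with charcoal-stripped serum. They then received 10 nM T3, the active thyroid hormone, or its NaOH vehicle, for 6 h or 24 h, which gave 4 groups of 2 libraries: vehicle 6 h, T3 6 h, vehicle 24 h and T3 24 h. Total RNA was depleted of ribosomal RNA and sequenced, so RNAs without a poly(A) tail could be counted. The labels do not name replicates as separate cultures. A p-value here sets a difference against the spread of these libraries alone, which may be technical. Only 1 cell line was used. No label says whether the cultures of the 2 times were run together, so time and a difference between cultures cannot be told apart.

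Long noncoding RNAs are transcripts that are not translated into protein. MALAT1 and NEAT1 stay in the nucleus: MALAT1 collects in nuclear speckles, where splicing factors are stored, and NEAT1 is the scaffold of paraspeckles, which hold RNA-binding proteins. H19, KCNQ1OT1 and MEG3 are imprinted, that is, expressed from the allele of 1 parent. H19 and MEG3 come from the maternal allele, and KCNQ1OT1 comes from the paternal allele and silences nearby genes in cis. TUG1 and OIP5-AS1 are widely expressed regulatory RNAs, and MIR22HG is the host transcript of miR-22.

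Gene counts ran from 2517983 to 8201606 per library, so 3 counts in 1 library, the floor for a single library, corresponded to 0.366 to 1.19 CPM, which is the count of a gene scaled to a common library total. Between 48.2% and 58.2% of uniquely aligned reads fell outside any annotated feature. Genes took 12.9% to 17.1% of the reads tallied at 6 h and 19.5% to 24.4% at 24 h, and reads aligned to more than 1 place 61.2% to 67.4% and 47.6% to 57.1%. These shares moved with time. The share in genes also differed by treatment label. At 6 h it was 12.9% and 15.4% with vehicle and 16.5% and 17.1% with T3. At 24 h it was 19.5% and 21.7% with vehicle and 22.8% and 24.4% with T3. Reads aligned to more than 1 place were 57.1% and 56.3% in vehicle 24 h and 47.6% and 49.97% in T3 24 h. At 6 h the groups overlapped in that share. The part of these shares in the differences over time and between T3 and vehicle was not tested. Levels below are CPM scaled by the trimmed mean of M-values (TMM), and a log2 fold change carries the standard error (SE) of the edgeR fit over all 8 libraries. KLF9 and HR, which are established T3 targets, fitted the labels at 6 h and went against them at 24 h. KLF9 was at 0.861 ± 0.061 CPM in vehicle 6 h and 13.7 ± 0.49 in T3 6 h, but at 26.1 ± 7.5 in the libraries labelled vehicle 24 h and 3.07 ± 0.40 in those labelled T3 24 h (SD, n = 2). HR was at 63.5 ± 7.0 and 108.8 ± 9.9 CPM at 6 h, and at 4.09 ± 0.29 and 0.213 ± 0.14 CPM at 24 h in the same order. Every direction between the 24 h groups below is therefore one between libraries labelled T3 and libraries labelled vehicle. The comparisons over time, called with vehicle and with T3, also take the 24 h labels as given.

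The thyroid label was checked against 9 markers of follicular cells. TSHR, NKX2-1 and DUOX2 had no more than 3 counts in any group, and TG had none at 6 h. The summed level of the 9 markers was 27.0 to 43.4 CPM at 6 h and 149 to 193 CPM at 24 h, mostly from PAX8, FOXE1 and HHEX. Summed epithelial markers (5 genes) were at 468 to 527 CPM at 6 h and 214 to 304 CPM at 24 h, almost wholly from KRT8 and KRT18. EPCAM was at 1.36 to 11.7 CPM, and CDH1 had 0 to 5 counts in each library. KRT19 went the other way, with 0 counts in each 6 h library and 2 to 13 at 24 h. Of 6 fibroblast markers, 3 or more had at most 3 counts in each group. The summed fibroblast level, 99.9 to 193 CPM at 6 h and 610 to 1228 CPM at 24 h, came almost wholly from COL1A1, a collagen gene, at 188 and 189 CPM in vehicle 6 h, 98.1 and 104 in T3 6 h, 1226 and 1123 in vehicle 24 h, and 703 and 608 in T3 24 h. The other tested fibroblast marker, DCN, went from 12, 6, 5 and 10 counts in the 6 h libraries to 0 in all 24 h libraries. Endothelial markers (4 genes) summed to no more than 1.27 CPM, immune markers (4 genes) to no more than 2.46 CPM and C cell markers (3 genes) to no more than 3.39 CPM. The follicular and epithelial sums and COL1A1 differed between the times, and COL1A1 also between T3 and vehicle at each time, and their part in the differences below was not tested. In bulk RNA, fewer cells that make an RNA and less of it per cell cannot be told apart.

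NEAT1 (chr11:65422774-65445540) and MALAT1 (chr11:65497688-65506516) are adjacent on the long arm of chromosome 11 in GENCODE 29 on GRCh38, both on the plus strand. MALAT1 and the long isoform of NEAT1 end without a normal poly(A) tail. Their 3′ ends fold a pair of T-rich motifs around an A-rich tract, after which RNase P cuts the transcript. The ends are shown because RNAs of this kind are seen in total RNA but can be missed by poly(A) selection. Both are given 5′ to 3′ as DNA letters from GENCODE 29, with the T-rich motifs and the A-rich tract in capitals.

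MALAT1-202, bases 8236 to 8355: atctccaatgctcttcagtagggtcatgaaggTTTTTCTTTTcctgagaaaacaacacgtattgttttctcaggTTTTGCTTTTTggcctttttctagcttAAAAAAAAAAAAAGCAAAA

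NEAT1-202, bases 22624 to 22743: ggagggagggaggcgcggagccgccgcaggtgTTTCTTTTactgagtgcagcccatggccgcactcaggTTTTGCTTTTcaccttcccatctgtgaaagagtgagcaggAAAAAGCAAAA

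The annotated NEAT1-202 ends at the last base of its A-rich tract, whereas MALAT1-202 continues for 353 bases beyond it. The A-rich tracts, as searched, were 19 bases long in MALAT1 and 11 in NEAT1.

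MALAT1 was the most abundant of the 8 RNAs in each group. It stood at 3701 and 4817 CPM in vehicle 6 h, 4922 and 5327 in T3 6 h, 17436 and 23117 in vehicle 24 h, and 22685 and 21887 in T3 24 h. Both T3 libraries were above both vehicle libraries at 6 h, the 24 h groups overlapped, and the 24 h libraries all lay above the 6 h ones. MALAT1 reads made up 0.358% to 0.486% of all gene counts at 6 h and 1.95% to 2.42% at 24 h. The log2 difference between T3 and vehicle was 0.27 (SE 0.15) at 6 h and 0.14 (SE 0.15) at 24 h. Leaving out single libraries moved the 6 h value between 0.09 and 0.50 and the 24 h value between -0.09 and 0.35. Between the times the log2 difference was 2.25 (SE 0.16) with vehicle and 2.12 (SE 0.16) with T3, which is 4.76-fold and 4.35-fold.

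NEAT1 stood at 770 and 968 CPM in vehicle 6 h, 1075 and 1174 in T3 6 h, 1770 and 2202 in vehicle 24 h, and 2014 and 1696 in T3 24 h. The order at 6 h was that of MALAT1, with T3 above vehicle by 0.37 on the log2 scale (SE 0.15), and the 24 h groups overlapped. All 24 h libraries were again above all 6 h libraries, by 1.19 (SE 0.15) with vehicle and 0.72 (SE 0.15) with T3 on the log2 scale. The counts do not separate the long NEAT1 isoform, which builds paraspeckles, from the short one.

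**Figure D1:**
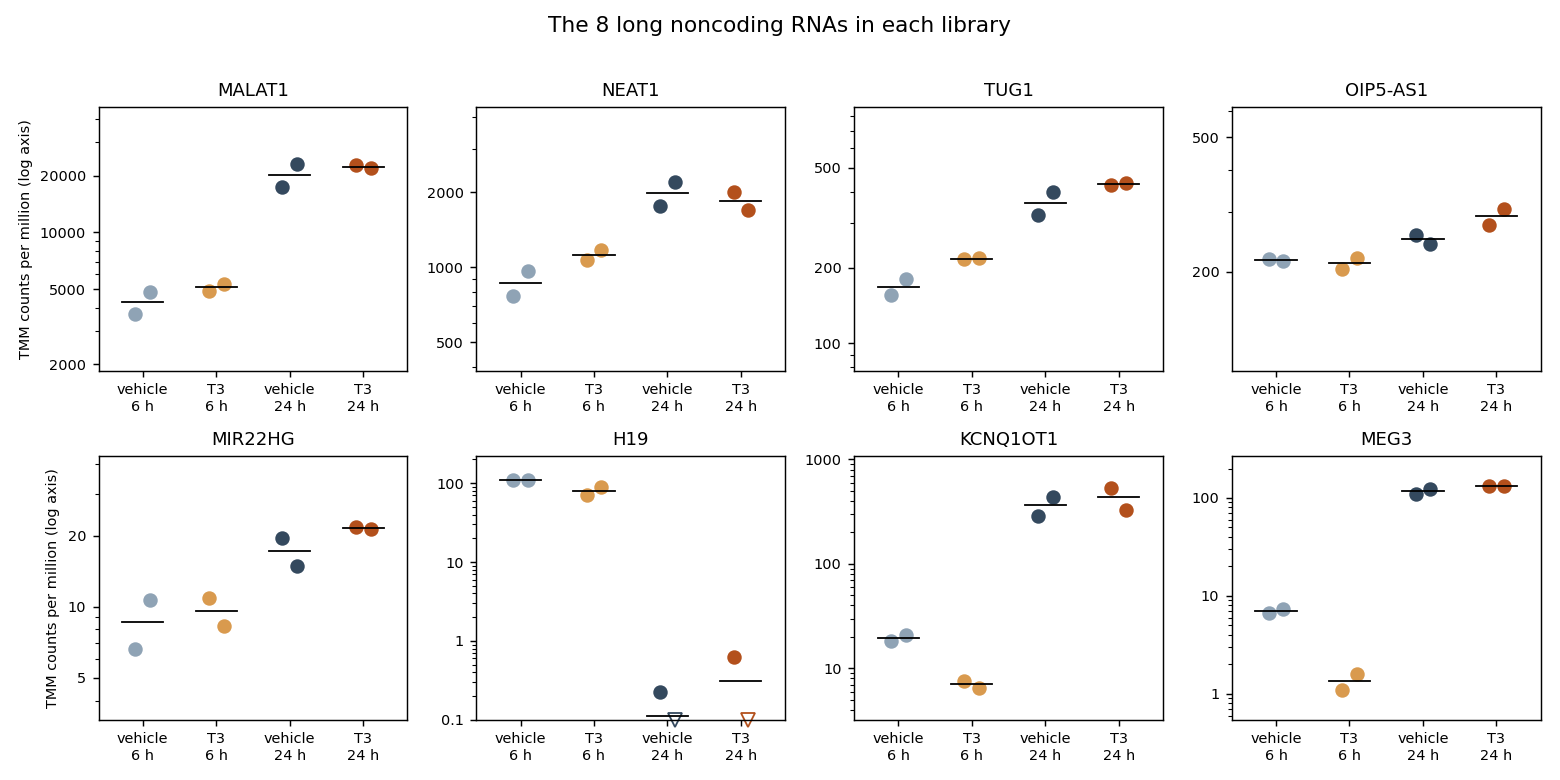
Level of each of the 8 RNAs in TMM CPM on a log axis, by group on the horizontal axis. Points are single libraries, black lines are group means, and open triangles at the lower edge of the H19 panel mark libraries with no count. H19 is the only panel in which the 24 h libraries lie below the 6 h ones.

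TUG1 (chr22:30969245-30979395, plus strand) shares its promoter region with MORC2 on the opposite strand. It stood at 155 and 181 CPM in vehicle 6 h, 216 and 219 in T3 6 h, 324 and 400 in vehicle 24 h, and 425 and 436 in T3 24 h. Both T3 libraries were above both vehicle libraries at each time, by 0.37 (SE 0.13) at 6 h and 0.25 (SE 0.12) at 24 h on the log2 scale. From 6 h to 24 h the difference was 1.11 (SE 0.13) with vehicle and 0.99 (SE 0.13) with T3. The 24 h value shrank to 0.07 (SE 0.10) once each library's trend with GC content and length, described below, was removed, and its direction is that of the 24 h labels.

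OIP5-AS1 (chr15:41283990-41309737, plus strand) varied least among the groups as counted. It stood at 219 and 216 CPM in vehicle 6 h, 204 and 220 in T3 6 h, 258 and 241 in vehicle 24 h, and 276 and 308 in T3 24 h. The 6 h groups overlapped (log2 difference -0.03, SE 0.12), and at 24 h T3 was above vehicle by 0.23 (SE 0.11). The differences over time were 0.20 (SE 0.12) with vehicle and 0.46 (SE 0.12) with T3. With the GC and length trend removed they were -0.76 (SE 0.12) and -0.57 (SE 0.12). These were larger in size than those of TUG1 (0.51 and 0.34) and NEAT1 (0.54 and -0.04) in that fit, so the ranking does not hold there.

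MIR22HG (chr17:1711493-1717174, minus strand) had low counts and a wide spread. It stood at 6.63 and 10.6 CPM in vehicle 6 h, 10.9 and 8.25 in T3 6 h, 19.4 and 14.8 in vehicle 24 h, and 21.7 and 21.4 in T3 24 h. Its 6 h groups overlapped, with a log2 difference of 0.15 (SE 0.34), and at 24 h T3 was above vehicle by 0.34 (SE 0.25). Over time it was higher by 1.00 (SE 0.31) with vehicle and by 1.20 (SE 0.28) with T3 on the log2 scale.

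H19 (chr11:1995176-2001470, minus strand) had the largest change over time and went the other way. Its libraries held 366 and 269 counts in vehicle 6 h, 195 and 446 in T3 6 h, 1 and 0 in vehicle 24 h, and 4 and 0 in T3 24 h. On the CPM scale the 6 h levels were 110.3 and 110.1 with vehicle and 70.6 and 89.7 with T3, and the libraries of 24 h lay at or near 0. The 6 h T3 libraries were both below the vehicle libraries (log2 difference -0.45, SE 0.21). With vehicle, 6 h was 1225-fold above 24 h, and the exact 95% counting interval ran from 219 to 48462, set by the single count at 24 h. With T3, the ratio was 313-fold (122 to 1152) from 4 counts at 24 h. A difference between T3 and vehicle at 24 h was not detectable at this depth, since both groups lay near the floor of 3 counts.

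KCNQ1OT1 (chr11:2608328-2699994, minus strand) is an unspliced antisense transcript of 91667 bases inside KCNQ1, which encodes a potassium channel. It stood at 18.4 and 20.9 CPM in vehicle 6 h, 7.60 and 6.44 in T3 6 h, 288 and 439 in vehicle 24 h, and 539 and 331 in T3 24 h. At 6 h both T3 libraries were below both vehicle libraries (log2 difference -1.50, SE 0.44), and at 24 h the groups overlapped (log2 difference 0.25, SE 0.24). Over time it was 18.7-fold higher with vehicle, a log2 difference of 4.22 (SE 0.31), and 62.9-fold higher with T3, a log2 difference of 5.97 (SE 0.35). Because the strand setting of the counting is not given in the sources used here, reads of KCNQ1OT1 and of KCNQ1 introns cannot be told apart. The exonic counts of KCNQ1 were 36, 30, 24 and 49 in the 6 h libraries, where KCNQ1OT1 was low, and 0, 2, 0 and 0 at 24 h, where it was high.

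MEG3 (chr14:100779410-100861031, plus strand) lies in the DLK1-MEG3 region of 14q32. It stood at 6.63 and 7.37 CPM in vehicle 6 h, 1.09 and 1.61 in T3 6 h, 111 and 124 in vehicle 24 h, and 134 and 132 in T3 24 h. The 6 h libraries held 22, 18, 3 and 8 counts, so the low T3 level rests on 11 reads. The log2 difference between T3 and vehicle was -2.27 at 6 h (SE 0.38) and 0.18 at 24 h (SE 0.13), without overlap at either time. Leaving out single libraries gave -2.65 to -2.08 at 6 h and 0.06 to 0.26 at 24 h. Over time MEG3 was 16.9-fold higher with vehicle, a log2 difference of 4.08 (SE 0.20), and 92.2-fold higher with T3, a log2 difference of 6.53 (SE 0.24).

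**Figure D2:**
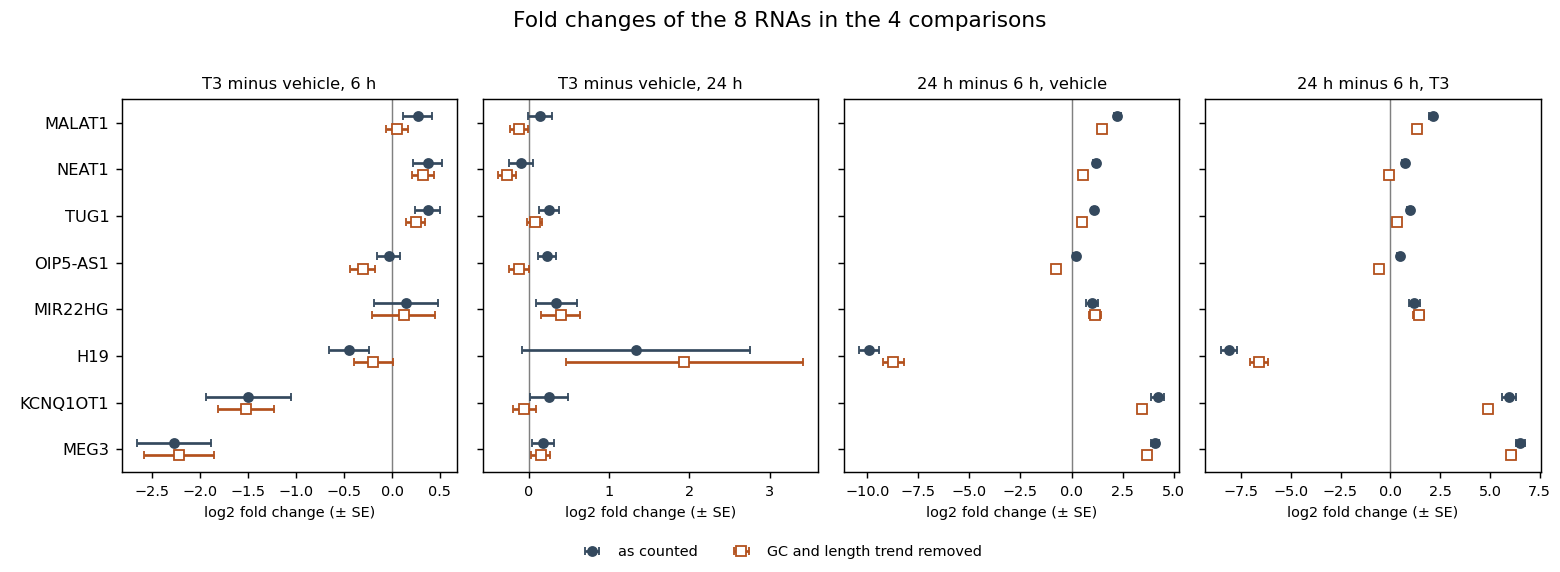
Log2 fold change ± SE of each RNA in the 4 comparisons, as counted (filled circles) and after each library's trend with GC content and length was removed (open squares); the horizontal scales differ between panels. At 6 h KCNQ1OT1 and MEG3 lie furthest below 0, and over time H19 lies far below 0 while KCNQ1OT1 and MEG3 lie furthest above it.

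Counted over the set, 3 RNAs (MALAT1, NEAT1 and TUG1) had both T3 libraries above both vehicle libraries at 6 h, 3 (H19, KCNQ1OT1 and MEG3) had both below, and 2 overlapped. Among all tested genes 28.9% were higher and 30.8% lower by the same rule. At 24 h 4 were higher with T3 (MEG3, TUG1, MIR22HG and OIP5-AS1), none was lower and 4 overlapped, beside 26% higher and 26.7% lower among all genes. With vehicle, 7 of the 8 were higher at 24 h than at 6 h and H19 was lower, beside 42% and 41.4% of all genes. With T3 the split was also 7 and 1, beside 43.3% and 43%. The members' median log2 difference was 0.06 at 6 h, 0.24 at 24 h, 1.15 over time with vehicle and 1.09 over time with T3. The medians over all tested genes were -0.02, -0.01, 0.03 and 0.02. The comparisons share libraries, and the members were selected on these counts, so nothing is read from the splits.

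The comparisons over time and those between T3 and vehicle all carried a trend with base composition. Tested genes in the lowest bin of GC content had a median log2 difference over time of 0.72 with vehicle and 0.73 with T3. Those in the highest bin had -0.96 and -1.20. Between T3 and vehicle the lowest bin had 0.30 at 6 h and 0.33 at 24 h, and the highest had -0.31 and -0.53. MALAT1 (40.3% GC), NEAT1 (44.1%), TUG1 (43.1%), KCNQ1OT1 (43.7%) and OIP5-AS1 (38.4%) are AT-rich, and H19 is at 63.4%. With the trend of each library removed, the differences over time with vehicle were 1.51 for MALAT1, 0.54 for NEAT1, 0.51 for TUG1, 3.44 for KCNQ1OT1, 3.69 for MEG3 and 1.15 for MIR22HG. H19 was then at -8.72 and OIP5-AS1 at -0.76, which turned its direction. With T3 they were 1.34 for MALAT1, 0.34 for TUG1, 4.90 for KCNQ1OT1, 6.06 for MEG3, 1.42 for MIR22HG and -6.59 for H19, while NEAT1 (-0.04) and OIP5-AS1 (-0.57) turned. Between T3 and vehicle at 6 h the low values of KCNQ1OT1 (-1.52) and MEG3 (-2.22) hardly moved, the differences of MALAT1 (0.05), TUG1 (0.25) and H19 (-0.19) shrank, and that of OIP5-AS1 grew to -0.31 (SE 0.13). At 24 h the signs of MALAT1 (-0.12), KCNQ1OT1 (-0.06) and OIP5-AS1 (-0.12) turned, and NEAT1 moved to -0.27 (SE 0.11).

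Levels can be compared between genes only per length, here as CPM per kilobase of annotated exon. In vehicle 6 h MALAT1 led with 482, followed by NEAT1 (38.2) and H19 (38.0), whose libraries overlapped, then OIP5-AS1 (17.1) and TUG1 (16.6), which overlapped too. MIR22HG (2.89), MEG3 (0.301) and KCNQ1OT1 (0.214) closed the order. In T3 6 h the order was MALAT1 (580), NEAT1 (49.4), H19 (27.7), TUG1 (21.4), OIP5-AS1 (16.7), MIR22HG (3.20), KCNQ1OT1 (0.0766) and MEG3 (0.0580), with no overlap between neighbours. In vehicle 24 h MALAT1 stood at 2297, NEAT1 at 87.2, TUG1 at 35.7 and OIP5-AS1 at 19.7. MIR22HG (5.73), MEG3 (5.06) and KCNQ1OT1 (3.97) followed, each overlapping the next, and H19 (0.0390) came last. In T3 24 h the order was MALAT1 (2524), NEAT1 (81.5), TUG1 (42.4), OIP5-AS1 (23.0), MIR22HG (7.22), MEG3 (5.73), KCNQ1OT1 (4.75) and H19 (0.107), with overlap only between MEG3 and KCNQ1OT1. The order depends on the length used. Per kilobase of the longest transcript, H19 (46.9) stood above NEAT1 (38.2) in vehicle 6 h, MEG3 (0.104) above KCNQ1OT1 (0.0766) in T3 6 h, and MEG3 above MIR22HG at 24 h, at 9.05 against 6.52 with vehicle and 10.2 against 8.21 with T3. H19 was last at 24 h by both lengths.

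The 6 h levels of KCNQ1OT1 and MEG3 were compared with those of FN1, which encodes fibronectin, and PAX8, a thyroid transcription factor, both chosen after their values were seen. As a percentage of the mean of the 4 libraries of 24 h, KCNQ1OT1 was at 4.61 and 5.23 in vehicle 6 h and 1.90 and 1.61 in T3 6 h. MEG3 was at 5.29 and 5.88, then 0.867 and 1.28. FN1 was at 5.72 and 8.09, then 1.66 and 1.52, and PAX8 at 8.07 and 10.96, then 3.52 and 3.26. In all 4 genes the vehicle libraries stood at a larger share of the 24 h level than the T3 libraries. Each gene has 1 common divisor, so this only restates that T3 lay below vehicle at 6 h. All 4 genes were picked with their counts in view, so nothing is read from the order they share. FN1 fell with T3 at 6 h by 2.12 on the log2 scale (SE 0.16, edgeR adjusted p = 7.0e-07) and PAX8 fell by 1.47 (SE 0.32, adjusted p = 0.012). The PAX8 call ended when any 1 of the 4 libraries of 6 h was left out (adjusted p up to 0.15) and with the GC and length trend removed (adjusted p = 0.052). Whether 1 source lies behind the 4 values was not tested.

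**Figure D3:**
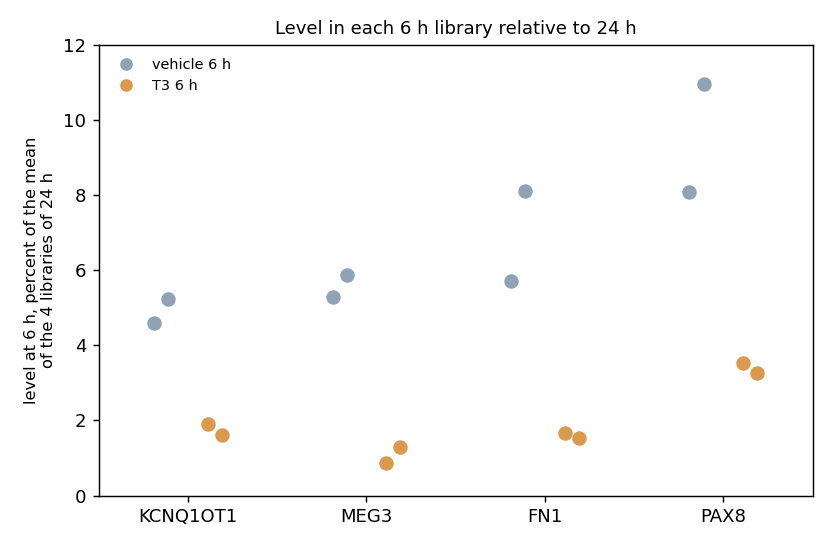
Level in each 6 h library as a percent of the mean of the 4 libraries of 24 h, for KCNQ1OT1, MEG3, FN1 and PAX8, with points for single libraries. The vehicle libraries lie between 4.61% and 10.96% and the T3 libraries between 0.867% and 3.52%.

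Genes of the 11p15 region, where H19 and KCNQ1OT1 lie, were tested as a list, and 9 of 11 had enough counts. They were lower at 24 h than at 6 h: 7 of 9 fell with vehicle and 6 of 9 with T3, and none rose in either, by edgeR and by DESeq2. The 7 were KCNQ1, OSBPL5, PHLDA2, MRPL23, CD81, TSSC4 and CDKN1C, and the last was not called with T3. Among all tested genes 31.9% rose and 32.6% fell over time with vehicle, and 35.1% and 35.2% with T3. KCNQ1 fell from 11.6 ± 1.0 CPM in vehicle 6 h to 0.149 ± 0.21 in vehicle 24 h (SD, n = 2), which is 63.7-fold (counting interval 16.9 to 537, edgeR adjusted p = 3.1e-06). With T3 it had 73 counts at 6 h and 0 at 24 h, so it was at least 47.5-fold lower, against a floor of 3 counts over the group (adjusted p = 5.7e-07), and the exact counting limit was 37.7-fold. OSBPL5, a lipid transfer protein gene, had log2 differences of -3.84 with vehicle (SE 0.23, adjusted p = 2.7e-10) and -5.11 with T3 (SE 0.25, adjusted p = 1.5e-11). PHLDA2, a maternally expressed growth regulator, had differences of -3.75 (SE 0.51) and -4.28 (SE 0.47), with adjusted p of 6.5e-06 and 3.0e-07. CDKN1C, the cell cycle inhibitor that KCNQ1OT1 silences in cis in other settings, fell by 1.12 with vehicle (SE 0.33, adjusted p = 0.0066), a call that ended without the first vehicle 6 h library (adjusted p = 0.074) and turned to 0.24 with the GC and length trend removed. With T3 its log2 difference was -0.18 (SE 0.33, adjusted p = 0.63), and with the trend removed it was 1.54 (adjusted p = 0.00053), a rise. IGF2, the partner of H19 in imprinting, had no count in any library. With the GC and length trend removed, 4 of the 9 still fell in each comparison (KCNQ1, OSBPL5, PHLDA2 and MRPL23), CDKN1C rose with T3, and CD81 and TSSC4 were not called. The differences with vehicle and T3 were then -2.80 and -3.81 for OSBPL5, -2.04 and -2.20 for PHLDA2, and -4.72 for KCNQ1 with vehicle.

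Between T3 and vehicle the 11p15 list changed little. None of the 9 genes was called at 6 h by edgeR or DESeq2, and 1 had an unadjusted p at or under 0.05, beside 3.78% of all genes called higher and 3.86% lower. At 24 h OSBPL5 was lower in the libraries labelled T3, at 2.32 ± 0.65 CPM against 6.68 ± 1.4 (SD, n = 2; log2 difference -1.45, SE 0.32, edgeR adjusted p = 0.0081). That call ended with the GC and length trend removed (adjusted p = 0.17) and in a fit of the 4 libraries of 24 h alone. The background at 24 h was 5.58% of genes called higher and 7.75% lower.

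In the 14q32 region 3 of 7 listed genes were tested. MEG8, a noncoding RNA downstream of MEG3 on the same strand, rose over time with MEG3, from 2 counts to 140 with vehicle and from 1 to 230 with T3. The ratios were 36.3 (9.86 to 303) and 118 (20.9 to 4674), with edgeR adjusted p of 2.0e-06 and 1.1e-07. Its log2 differences went from 5.09 to 4.30 with vehicle and from 6.64 to 5.85 with T3 when the trend was removed. BEGAIN, a neighbouring protein-coding gene, went the other way, from 127 ± 8.9 to 0.714 ± 0.59 CPM with vehicle and from 104 ± 15 to 1.09 ± 1.5 with T3 (SD, n = 2; adjusted p = 1.3e-05 and 1.0e-05), and its log2 differences of -7.59 and -6.77 became -6.58 and -5.50 with the trend removed. The third was DIO3OS, antisense to the gene of the T3-inactivating enzyme DIO3. It had 8, 7, 1 and 11 counts at 6 h and 0 in all 24 h libraries. It was called lower over time with vehicle (edgeR adjusted p = 0.0021) and with T3 (edgeR adjusted p = 0.0039). Both calls ended in at least 1 other setting that kept all libraries of the groups compared. The T3 call also ended without the second T3 6 h library. DLK1, the paternal partner of MEG3, had 10 counts in 1 vehicle 6 h library, 1 count in a vehicle 24 h library and 0 elsewhere. Between T3 and vehicle none of the 3 tested genes was called at either time, with either edgeR or DESeq2, and none had an unadjusted p at or under 0.05.

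**Figure D4:**
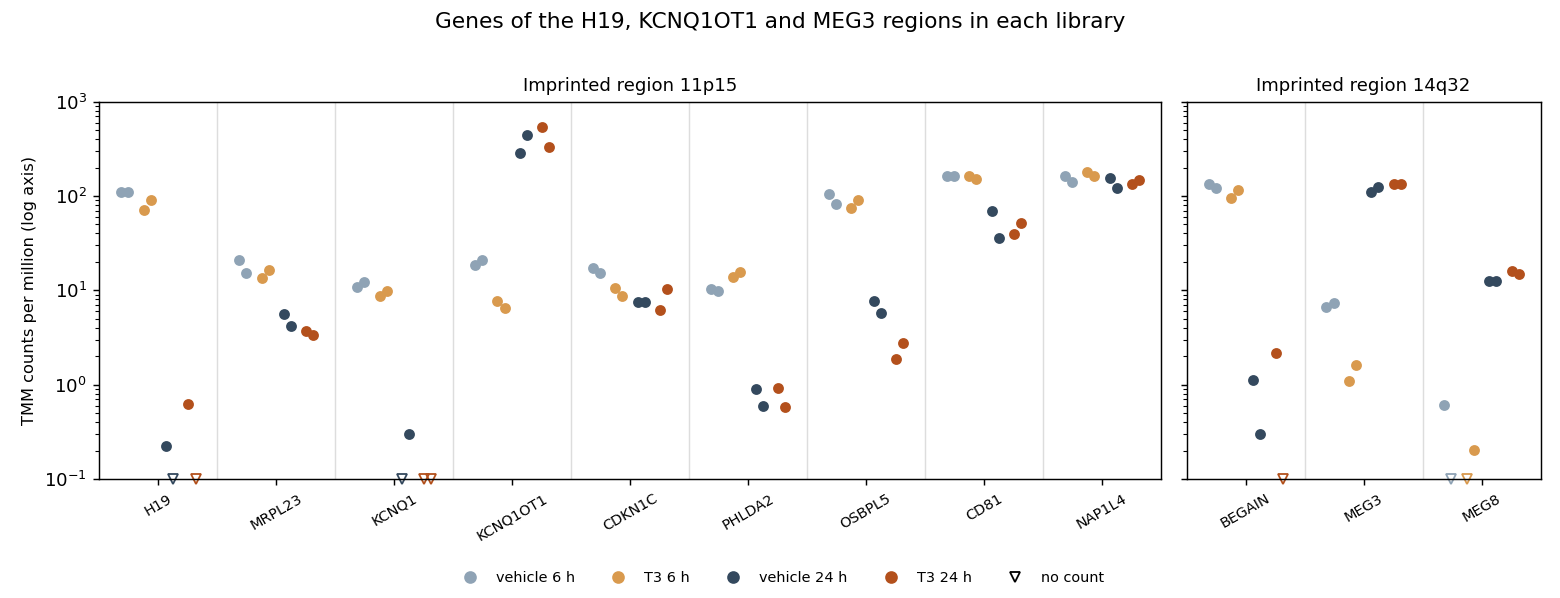
Level in each library, in TMM CPM on a log axis, of genes of the 11p15 region (left) and the 14q32 region (right); colours mark the 4 groups and open triangles mark libraries with no count. KCNQ1OT1, MEG3 and MEG8 are higher at 24 h, H19, KCNQ1, PHLDA2, OSBPL5, MRPL23, CD81 and BEGAIN are lower, and NAP1L4 stays near its 6 h level.

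Promoter windows of 300 bases, from 250 before to 50 after an annotated start, were found in RefSeq (GRCh38.p14) for 6 of the 8 RNAs, as 9 windows. MEG3 and H19 are shown, since they are the imprinted RNAs with windows and went in opposite directions over time. Capitals mark a CCAAT box and a cyclic AMP response element (TGACGTCA), both searched on both strands.

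MEG3, chr14:100825858-100826157, plus strand: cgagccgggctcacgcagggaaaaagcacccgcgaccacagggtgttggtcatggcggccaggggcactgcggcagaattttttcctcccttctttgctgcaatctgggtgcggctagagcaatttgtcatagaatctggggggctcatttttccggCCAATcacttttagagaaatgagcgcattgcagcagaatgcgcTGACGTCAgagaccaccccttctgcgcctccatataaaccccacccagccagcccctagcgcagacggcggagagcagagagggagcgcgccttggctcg

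H19, chr11:2001217-2001516, minus strand: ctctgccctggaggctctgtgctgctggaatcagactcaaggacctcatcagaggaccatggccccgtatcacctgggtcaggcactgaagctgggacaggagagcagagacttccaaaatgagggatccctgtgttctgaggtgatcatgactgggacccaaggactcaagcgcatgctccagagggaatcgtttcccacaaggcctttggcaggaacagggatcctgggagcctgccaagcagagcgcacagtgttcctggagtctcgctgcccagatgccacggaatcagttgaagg

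The element in MEG3 lies at -50 and the CCAAT box at -93 from this start, and both recur in its other 2 windows, which overlap this one. Of 35116 RefSeq windows, 1.85% hold TGACGTCA and 34.6% hold CCAAT, and the H19 window holds neither. AGGTCA, the half-site bound by thyroid hormone receptors, was in 0 of the 9 member windows and in 13.8% of all windows. GGGCGG, the GC box, was in 45% of all windows, with 5 matches in 1 MALAT1 window, 4 in TUG1, 3 in MIR22HG and 1 in OIP5-AS1. A match describes the letters only.

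H19, MIR22HG and MEG3 carry the microRNAs shown here, whose precursors share reads with the host. MIR612, in the body of NEAT1, and MIR2392, in that of MEG3, lie on the same strand as their hosts and are not shown. Mature sequences are from RefSeq (GRCh38.p14), with the seed, bases 2 to 8, in capitals.

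hsa-miR-675-5p, in H19, chr11:1996800-1996822, minus strand: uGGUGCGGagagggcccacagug

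hsa-miR-675-3p, in H19, chr11:1996768-1996787, minus strand: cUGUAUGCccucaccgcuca

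hsa-miR-22-5p, in MIR22HG, chr17:1713952-1713973, minus strand: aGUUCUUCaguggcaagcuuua

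hsa-miR-22-3p, in MIR22HG, chr17:1713914-1713935, minus strand: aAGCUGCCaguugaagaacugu

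hsa-miR-770-5p, in MEG3, chr14:100852409-100852431, plus strand: uCCAGUACcacgugucagggcca

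No 2 of these 5 share a seed. The rows MIR675 and MIR22 were at 0 counts in all 8 libraries. Libraries of long RNA do not measure mature microRNAs, and reads over a precursor can be set aside as ambiguous between it and its host.

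Genes within 100 kb of an RNA of the set were tested by position, and 26 of 88 had enough counts. At 6 h none rose and 3 fell with T3, beside 3.78% and 3.86% of all genes. DESeq2 called 2 of the neighbours, and 6 had an unadjusted p at or under 0.05. TLCD2, 1055 bases from MIR22HG, was at 7.20 ± 1.1 CPM against 14.8 ± 0.74 with vehicle (SD, n = 2; log2 difference -1.08, SE 0.28, edgeR adjusted p = 0.026). EHBP1L1, 69522 bases from MALAT1, was at 17.6 ± 2.4 against 36.7 ± 2.5 (log2 difference -1.03, SE 0.21, adjusted p = 0.0071), and MAP3K11, beyond it, was the third (adjusted p = 0.049). None of the 3 calls held when any 1 of the 4 libraries of 6 h was left out. At 24 h 11 neighbours had an unadjusted p at or under 0.05. None rose and 5 fell, beside 5.58% and 7.75% of all genes. Among the 5 were EHBP1L1 and SSSCA1 near MALAT1, RILP near MIR22HG, and SMTN near TUG1. EHBP1L1 was at 51.3 ± 2.9 CPM against 80.6 ± 14 with vehicle (SD, n = 2; log2 difference -0.66, SE 0.16, edgeR adjusted p = 0.015). None of the 5 was called with the GC and length trend removed, 3 were called by DESeq2, and 1 was called without the second vehicle 24 h library, where EHBP1L1 had an adjusted p of 0.12.

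Over time the neighbours split evenly with vehicle, 7 up and 7 down of 26, while 4 rose and 10 fell with T3, beside 31.9% up and 32.6% down of all genes with vehicle and 35.1% and 35.2% with T3. With the GC and length trend removed the splits were 9 up and 5 down, and 10 up and 5 down. OIP5, which overlaps OIP5-AS1 on the opposite strand and encodes a centromere protein, fell from 20.4 ± 1.2 to 8.56 ± 2.6 CPM with vehicle (SD, n = 2; log2 difference -1.28, SE 0.28, edgeR adjusted p = 0.00068). With T3 it fell by 1.04 (SE 0.25, adjusted p = 0.0015), a call that ended with the trend removed (adjusted p = 0.060). TLCD2 rose by 1.87 with vehicle (SE 0.22, adjusted p = 9.4e-07) and by 2.56 with T3 (SE 0.23, adjusted p = 3.5e-08). WDR81, whose body overlaps that of MIR22HG on the other strand, had log2 differences of -1.54 (SE 0.18, adjusted p = 1.2e-06) and -1.44 (SE 0.17, adjusted p = 1.2e-06), and with the trend removed these shrank to -0.51 and -0.15 and the T3 call ended (adjusted p = 0.42). EHBP1L1 rose by 1.14 (SE 0.18) and 1.52 (SE 0.19) over time, with adjusted p of 2.8e-05 and 1.7e-06, and by 2.23 and 2.90 with the trend removed.

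Nuclear speckle proteins, among which MALAT1 lies, were tested together with factors that process its 3′ end, 14 genes in all. At 6 h edgeR called 3.78% of all genes higher and 3.86% lower with T3. Of the 14, 8 had an unadjusted p at or under 0.05, and 3 rose and none fell, by edgeR and by DESeq2. These were the splicing factor genes SRSF2, at 359 ± 4.3 against 253 ± 10 CPM (log2 difference 0.50, SE 0.12, adjusted p = 0.017), SRSF3 (0.44, SE 0.13, adjusted p = 0.043) and SRSF1 (0.39, SE 0.11, adjusted p = 0.046). All 3 calls ended when any 1 of the 4 libraries of 6 h was left out, and with the GC and length trend removed. At 24 h none rose and 2 fell, beside 5.58% and 7.75% of all genes. With the GC and length trend removed neither of the 2 was called, but 1 other of the 14 was called lower. The 2 were U2AF2, a splice site recognition factor, with a log2 difference of -0.80 (SE 0.14, edgeR adjusted p = 0.0026), and the speckle scaffold SRRM2 with -0.44 (SE 0.14, adjusted p = 0.048). With the trend removed U2AF2 had an adjusted p of 0.29 and SRRM2 of 0.68, and the SRRM2 call also ended without any 1 of 7 libraries (adjusted p up to 0.27). Over time 3 rose and 6 fell with vehicle, and 2 rose and 8 fell with T3, where 31.9% and 32.6% of all genes rose and fell with vehicle and 35.1% and 35.2% with T3. After removal of the trend 2 rose and 7 fell with vehicle, and none rose and 9 fell with T3. ELAC2, the RNase Z that trims the tRNA-like end of MALAT1, had differences of -1.81 with vehicle (SE 0.15, adjusted p = 1.8e-08) and -2.40 with T3 (SE 0.15, adjusted p = 2.8e-10). POP1, a subunit of RNase P, had -1.55 (SE 0.25, adjusted p = 3.5e-05) and -2.17 (SE 0.23, adjusted p = 2.5e-07). The speckle protein SRRM1 rose with vehicle, by 1.14 (SE 0.16, adjusted p = 7.1e-06).

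Paraspeckle proteins, the partners of NEAT1, were all measured (18 of 18). At 6 h none was called by the main edgeR fit, beside 3.78% of all genes higher and 3.86% lower. DESeq2 called 2 of the 18 higher, and 7 had an unadjusted p at or under 0.05. With the GC and length trend removed edgeR called 1 of the 18 higher and none lower. At 24 h 2 rose and 2 fell with T3, by edgeR and by DESeq2, beside 5.58% and 7.75% of all genes by edgeR. The RNA-binding protein gene MATR3 rose by 0.77 (SE 0.19, edgeR adjusted p = 0.016), DAZAP1 fell by 0.62 (SE 0.14, adjusted p = 0.0084), and SMARCA4, the ATPase of SWI/SNF, fell by 0.54 (SE 0.11, adjusted p = 0.0071). The fourth, the cleavage factor gene CPSF6, named only because the count is small, rose by 0.43 (SE 0.12, adjusted p = 0.026). DAZAP1 (adjusted p = 0.069), SMARCA4 (0.91) and CPSF6 (0.83) were no longer called with the trend removed, and DAZAP1 was not called without the second vehicle 24 h library (0.061). MATR3 has no GC value here. Its call ended without the first library of either 24 h group, and the log2 difference without single libraries was 0.56 to 0.94. The MATR3 call also ended in at least 1 other setting that kept all libraries of 24 h. Over time 8 rose and 5 fell with vehicle (background 31.9% and 32.6%), and 4 rose and 8 fell with T3 (background 35.1% and 35.2%). DAZAP1 had log2 differences of -0.90 (SE 0.14) and -1.36 (SE 0.14), with adjusted p of 1.8e-05 and 1.1e-07, while CPSF7, a cleavage factor subunit, rose with vehicle by 0.79 (SE 0.13, adjusted p = 4.9e-05). With the trend removed the splits were 3 up and 9 down with vehicle, and 1 up and 11 down with T3.

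Imprinted genes outside these regions gave 12 tested of 19. At 6 h 1 rose and 3 fell with T3, beside 3.78% and 3.86% of all genes. GRB10, an adaptor that dampens insulin signalling, was at 43.3 ± 1.2 against 87.7 ± 18 CPM (SD, n = 2; log2 difference -1.01, SE 0.18, edgeR adjusted p = 0.0030), with an adjusted p of 0.063 without the second T3 library. L3MBTL1, a chromatin reader, fell by 0.85 (SE 0.25, adjusted p = 0.049), and MEST, a paternally expressed hydrolase gene, rose by 0.62 (SE 0.18, adjusted p = 0.047). The third to fall was IGF2R, the receptor that clears IGF2, by 0.45 (SE 0.12, adjusted p = 0.026). DESeq2 called neither L3MBTL1 nor MEST, and their calls and that of IGF2R ended without any 1 of the 4 libraries of 6 h. At 24 h 2 rose and none fell, beside 5.58% and 7.75% of all genes. MEST was higher in the libraries labelled T3, at 55.2 ± 6.4 CPM against 36.2 ± 0.25 in those labelled vehicle (log2 difference 0.61, SE 0.16, edgeR adjusted p = 0.021). So was SNHG14, the host of the Prader-Willi small nucleolar RNAs (0.46, SE 0.13, edgeR adjusted p = 0.026). Both calls ended when any 1 of 5 libraries was left out (adjusted p up to 0.086 and 0.14), and with the trend removed (0.083 and 0.31). Over time 5 rose and 1 fell with vehicle, beside 31.9% and 32.6% of all genes, and 6 rose and 1 fell with T3, beside 35.1% and 35.2%. The splits without the trend were 4 up and 2 down with vehicle, and 6 up and 1 down with T3. L3MBTL1 rose by 1.54 (SE 0.21) and 2.31 (SE 0.22), SGCE, a sarcoglycan gene, by 1.57 (SE 0.19) and 2.09 (SE 0.19), and the zinc finger gene PLAGL1 by 1.23 (SE 0.23) and 2.03 (SE 0.23). The adjusted p of these 6 values ran from 2.8e-08 to 0.00015. SGCE stood at 0.40 (adjusted p = 0.044) and 0.75 (adjusted p = 0.00050), and PLAGL1 at 0.54 (adjusted p = 0.033) and 1.32 (adjusted p = 3.4e-05) with the trend removed.

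A list of other long noncoding RNAs gave 18 tested of 23 found. At 6 h none was called by edgeR or DESeq2, beside 3.78% of all genes higher and 3.86% lower by edgeR. Of the 18, 3 had an unadjusted p at or under 0.05. At 24 h 5 had an unadjusted p at or under 0.05. By edgeR and by DESeq2 3 rose with T3 and none fell, beside 5.58% and 7.75% of all genes by edgeR. MIR17HG, the host of the miR-17-92 cluster, was at 42.3 ± 2.8 against 21.4 ± 1.3 CPM (SD, n = 2; log2 difference 0.99, SE 0.19, edgeR adjusted p = 0.0037). DLEU2 rose by 0.93 (SE 0.22, adjusted p = 0.012), and NORAD, which binds Pumilio proteins, by 0.37 (SE 0.11, adjusted p = 0.039). With the trend removed their adjusted p were 0.083, 0.056 and 0.48. The DLEU2 call also ended without the first vehicle 24 h library (0.089), and the NORAD call without any 1 of 7 libraries (up to 0.15). Over time 5 rose and 6 fell with vehicle, and 8 rose and 6 fell with T3, set beside 31.9% and 32.6%, and 35.1% and 35.2%, of all genes. With the trend removed the splits were 3 up and 10 down, and 4 up and 8 down. UCA1 went from 60 counts to 1 with vehicle, a ratio of 116 (20.0 to 4647), and from 182 to 0 with T3, at least 118-fold lower against a floor of 3 counts over the group, with an exact counting limit of 95.3-fold (adjusted p = 1.8e-06 and 2.0e-08). TINCR, an RNA of epidermal differentiation, fell from 44.1 ± 1.6 to 1.16 ± 0.68 CPM and from 34.8 ± 0.90 to 2.13 ± 0.063 CPM, with adjusted p of 7.1e-10 and 1.6e-09, and its log2 differences of -5.12 and -4.02 became -4.43 and -3.16 with the trend removed. MIR155HG, the host of miR-155, rose from 1 count to 45 with vehicle, a ratio of 23.3 (3.98 to 942), and from 0 to 95 with T3, at least 16.2-fold higher against the same floor, with an exact counting limit of 12.9-fold (adjusted p = 0.00073 and 1.4e-05).

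How far the T3 response at 24 h departed from that at 6 h was tested too, and the departure was called for 1.84% of all tested genes. For the members the difference in log2 fold change is a description: 2.45 for MEG3 (SE 0.41), 1.75 for KCNQ1OT1 (SE 0.50), 0.26 for OIP5-AS1 (SE 0.16), 0.20 for MIR22HG (SE 0.42), -0.13 for TUG1 (SE 0.18), -0.13 for MALAT1 (SE 0.21) and -0.47 for NEAT1 (SE 0.21). H19 gave 1.79 with an SE of 1.46, since its 24 h groups lie near 0. All of these take the 24 h difference with the sign of the 24 h labels, which KLF9 and HR went against, and no value for turned labels was computed. Among the companion genes the difference was called for GRB10 and U2AF2, and for none of the 26 neighbours by edgeR or DESeq2, of which 3 had an unadjusted p at or under 0.05.

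For each RNA the 2 tested genes with the most similar profile were sought among 10134 genes, by Pearson correlation of log2 CPM over the 8 libraries. For MALAT1 these were NSD1 (r = 0.999) and RP11-349A22.5 (0.999), for NEAT1 CEP63 (0.995) and PALB2 (0.993), and for TUG1 SREK1 (0.999) and DEK (0.999). They were CLEC2D (0.997) and SDC2 (0.997) for KCNQ1OT1, DPYSL3 (0.999) and BEND7 (0.998) for MEG3, and SIK1 (0.999) and RBM15B (0.998) for H19. For MIR22HG they were ACTR10 (0.989) and C1orf52 (0.985), and for OIP5-AS1 RNF14 (0.994) and ACYP1 (0.982). Such values are common here because the times separate the libraries: 1402 genes had r above 0.95 with MALAT1, 1450 with H19 and 61 with OIP5-AS1. All points share the 8 libraries, with their depth and GC trend, and the correlations describe these libraries only.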

How the data were processed

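RNA-seq counts of 8 libraries of Nthy-ORI cells were used, 4 groups of 2 by treatment and time, with replicate numbers from the labels. The deposited values are raw read counts per gene symbol; the submitters' processing notes name CASAVA 1.7, STAR 2.7, HTSeq, DESeq2 and hg38. The sources used here do not give the annotation release or strand setting. Each library held 56832 gene rows, and the 5 summary rows were left out. Reads counted in genes were 12.9% to 17.1% of a library's table at 6 h and 19.5% to 24.4% at 24 h.

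Genes were tested with edgeR 4.0.16 (R 4.3.3): TMM, filterByExpr by group, robust quasi-likelihood F test, 1 coefficient per group, 4 residual degrees of freedom, Benjamini-Hochberg adjustment over 14611 genes, threshold 0.05. The biological coefficient of variation was 13.1%. An SE is the absolute log2 fold change over the square root of F. Alternatives were DESeq2 1.42.0 and other scalings, filters and sample choices. Another fit removed each library's lowess trend (span 0.3) with GC content and exon length, over 12577 genes matched by symbol to GENCODE 29, which may not be the annotation of the counts. Counting intervals are exact 95% binomial intervals and cover counting error only. The test was tried on simulated counts with known changes.

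The members and lists were chosen with earlier results of these data known. The members are given without tests. Named among a list's genes were, in each comparison, up to 3 with the largest change (all, for neighbours) that were called, had a mean of at least 1 CPM and did not overlap between groups; other genes were named after their values were seen. Of 102 entries in the lists, 92 were found by symbol, and the other 10 were not analysed here. Some genes covered by this rule or by the marker lists are not reported here.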

Additional observations from a re-analysis of the deposited data

Results flagged for a closer look

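For MEG3 both T3 libraries were below both vehicle libraries at 6 h and above both at 24 h. The log2 difference was -2.27 (SE 0.38) at 6 h. At 24 h it was 0.18 (SE 0.13), small beside its SE, and 26% of all tested genes were higher by the same rule. The difference in log2 fold change between the times was 2.45 (SE 0.41). MEG3 was selected on these counts, so this difference was not tested. Libraries labelled T3 24 h and vehicle 24 h are those in which KLF9 and HR go against the labels.

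The T3 response of GRB10 differed between the times by 1.15 on the log2 scale (SE 0.23, edgeR adjusted p = 0.017): it was lower with T3 at 6 h in 2 of 2 libraries, and at 24 h the groups overlapped. Leaving out the second vehicle 6 h library or either T3 6 h library gave adjusted p of up to 0.15.

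The response of U2AF2 differed by -0.91 (SE 0.20, edgeR adjusted p = 0.028), and it was lower at 24 h in 2 of 2 libraries labelled T3. Both this value and that of GRB10 rest on the 24 h labels as given. The U2AF2 call ended with the GC and length trend removed (edgeR adjusted p = 0.075). It also ended in fits that left out single libraries, the second vehicle 6 h library and either T3 6 h library among them.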

How the results depend on the processing

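All counts here are numbers of genes called. At 6 h the 7 calls among the companion lists became 3 with library size only, 11 with no filter, 22 with only the 4 libraries compared, 2 with the GC and length trend removed and 0 to 17 when single libraries were left out. The 3 neighbours became 7 with only the 4 libraries, 1 with the trend removed and 0 to 4 without single libraries. At 24 h the 12 companion calls became 5, 1 and 6 to 14 in that order, and the 5 neighbours 2, 0 and 1 to 6, or 3 with DESeq2. For the difference of the responses, the 2 companion calls became 5 with no filter, 1 with the trend removed and 0 to 12 without single libraries, and the 0 neighbours became 1 with no filter and 0 to 1 without single libraries. The fit of only the libraries compared could not be run for that difference. Over time these totals of both directions stayed within 1.5 times in every setting run, but with the trend removed the splits by direction of several lists did not: 11p15 genes lower with vehicle went from 7 to 4, neighbours higher with T3 from 4 to 10, and paraspeckle genes higher with vehicle from 8 to 3 and with T3 from 4 to 1.

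The median log2 fold change of the 8 RNAs with the trend removed was 0.00887 at 24 h, 0.84 over time with vehicle and 0.84 over time with T3, and 1.31 over time with T3 with library size only. Leaving out single libraries gave -0.10 to 0.25 at 6 h and -0.000358 to 0.38 for the difference of the responses. With the trend removed 2 differences that lay more than 2 SE from 0 changed sign, those of NEAT1 (-0.0446) and OIP5-AS1 (-0.57) over time with T3. So did 4 that lay closer to 0: OIP5-AS1 over time with vehicle (-0.76) and MALAT1 (-0.12), KCNQ1OT1 (-0.06) and OIP5-AS1 (-0.12) at 24 h. Beside the first 2, 500 of 591 recomputed member values moved by less than the spread between libraries and 89 moved further. Of 85 called values of other genes taken by the naming rule, 44 kept their call in every setting and none changed sign. The cause of these shifts was not tested.

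Replicate numbers are shared by all groups. A replicate block within time gave 3 companion calls at 6 h in place of 7. The deviations of same-numbered libraries correlated at -0.044 to 0.097. With 2 libraries a group these values cannot show whether same-numbered libraries belong together, and the main fit did not pair them. Low counts limit H19 at 24 h, MEG3 and KCNQ1OT1 in T3 6 h, and MIR22HG.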
